A study of Mus musculus with 12 samples.

Results

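The RNA of the somatodendritic side of Smn-depleted mouse motoneuron cultures was described from 6 libraries, which are 6 of the 12 in the series. The other 6 came from the axonal side and were not compared here. The libraries were chosen by their titles, and of the 39174 genes in each deposited table the 22736 that the authors' annotation types as protein coding were taken. The cultures were labelled as primary motoneurons of mice with a CD-1 strain background. They grew in microfluidic chambers, devices in which axons pass through narrow channels into a second chamber, so that cell bodies and dendrites can be harvested apart from axons. All 6 libraries carried the Smn knockdown, and no library without it was analysed here. How the knockdown was made, the age of the animals and whether the replicates were separate cultures are not given in the labels, so the spread between replicates may be technical.

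Spinal motoneurons are the neurons that drive muscle. They release acetylcholine, which choline acetyltransferase (Chat) makes and which depends on choline uptake by Slc5a7, and they are specified by homeodomain factors such as Mnx1, Isl1, Isl2 and Lhx3. The embryonic spinal cord around them also holds inhibitory interneurons that release GABA or glycine, excitatory interneurons that load glutamate into vesicles through Slc17a6, and glia. Loss of SMN, the product of the targeted gene, causes the motoneuron disease spinal muscular atrophy.

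Values are FPKM, the mapped fragments of a gene divided by its transcript length and by the total of the library, as the authors computed them. A gene counted as detected when it reached an FPKM of at least 1 in at least 5 of the 6 libraries. Where 1 library was left out, 1 fewer was required, which can only keep or raise a count of detected genes. The size of the step that a single read makes in genes with 1 transcript gave 363000, 263000, 277000, 55000, 276000 and 255000 reads for replicates 1 to 6. In a transcript of 2 kilobases 1 read was worth 1.38 to 1.96 FPKM in 5 libraries and 9.12 FPKM in replicate 4, so a gene of a few FPKM rests on a few reads, and replicate 4 had little resolution for such genes. An FPKM of 0 is therefore given as a listed value and not as absence. Of the 869 genes with a mean of at least 50 FPKM, 13 were listed at 0 in replicate 4 alone and none in another single library. Smn1 itself was listed at 5.69, 0, 0, 0, 14.9 and 0 FPKM, so at this depth its level cannot check the knockdown.

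In all, 8327 protein-coding genes were detected, which is 36.6% of the 22736. Counts of detected members of a gene list are to be read against this share. All 6 libraries listed 5501 genes at an FPKM of at least 1 (24.2%), and no library did so for 9454 (41.6%), most of which were listed at 0 in all 6 libraries (8876 genes, 39% of the 22736). The number of genes at this level was 10934, 10783, 10365, 6547, 10464 and 10327 in replicates 1 to 6. The low number in replicate 4 went with its low depth.

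The libraries also differed in composition. Protein-coding genes made up 51.1 and 52.2% of all FPKM in replicates 1 and 2, and 30.3 to 33.0% in replicates 3 to 6. A single non-coding gene, Gm26924, took 26.9 and 25.7% of all FPKM in replicates 1 and 2 and 34.3 to 37.9% in the other 4. After the protein-coding FPKM of each library were rescaled to a common sum, replicates 1 and 2 both lay above all of 3 to 6 in 904 of the 8327 detected genes, which is 10.9%, and both below in 550, which is 6.61%. No other pair of libraries was counted in this way, so whether these shares are particular to replicates 1 and 2 was not tested. Values below are as deposited and are given by library. The same rescaling gave 8822 detected genes in place of 8327, and where it changes what is said of a gene or of the spread, this is stated beside it.

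**Figure D1:**
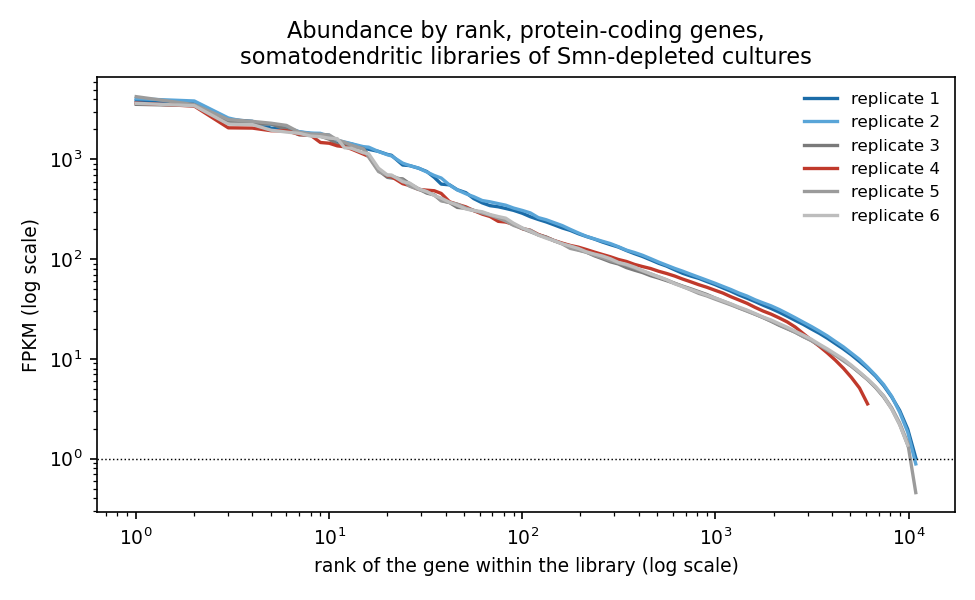
FPKM of protein-coding genes (vertical axis, log scale) against their rank within each library (horizontal axis, log scale), 1 line per library. The 6 lines run close together at the top ranks, replicates 1 and 2 lie above the others in the middle, and replicate 4 ends early, with 6547 genes above the dotted line at an FPKM of 1.

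The most abundant messages included those of the mitochondrial genome and the neuronal cytoskeleton. The plot of abundance by rank shows that no gene dominated. The highest gene held 1.32 to 1.89% of the protein-coding FPKM of a library. The 100 highest genes held 26.4 ± 1.06% and the 1000 highest 57.6 ± 1.52% (SD, n = 6). The gene with the highest mean level was mt-Co1, a subunit of cytochrome c oxidase encoded by mitochondrial DNA, at 3893, 3851, 3461, 3419, 3538 and 3451 FPKM in replicates 1 to 6. All 13 mitochondrially encoded protein genes were detected, 12 were among the 100 genes of highest mean level beside 6 tubulins, and together the 13 held 7.77 ± 1.49% of protein-coding FPKM (SD, n = 6).

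Among nuclear genes, Tmsb10, which encodes the actin-binding peptide thymosin beta 10, had 3610.4, 4058, 1411, 1451, 1753 and 1687 FPKM. Its relative Tmsb4x had 166, 254, 291, 347, 325 and 395 FPKM. Tmsb10 was the higher one in 6 of 6 libraries, by 2.88 ± 1.05 on the scale of log2(FPKM + 1), and the gap was widest in replicates 1 and 2. Tuba1a, the alpha-tubulin of growing neurons (chromosome 15, bases 98949841 to 98953551, GRCm38), varied little in deposited FPKM, at 1470.4, 1325, 1283, 1338, 1388 and 1307 FPKM. Actb, cytoplasmic beta-actin, lay between 1072 and 2241 FPKM with a median of 1814. Neuronatin (Nnat), an imprinted gene of developing neurons, lay between 1138 and 2091 FPKM with a median of 1632. Growth-associated protein 43 (Gap43) and the neuronal beta-tubulin Tubb3 ranked 22nd and 25th by mean level, at 701 ± 123 FPKM (SD, n = 6) and 654 ± 207 FPKM (SD, n = 6). The remaining top genes included the translation factor Eef1a1, the G protein subunit Gnas, the calmodulin gene Calm3, Crmp1 of the growth cone, ferritin heavy chain Fth1 and Pcp4.

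Some genes of this top group moved with other features of the libraries. Lars2, which encodes a mitochondrial leucyl-tRNA synthetase, ranked second at 1819.7, 1833, 3564, 3673, 4255 and 3648 FPKM, with replicates 1 and 2 below all others. Gm26924 was likewise lower in replicates 1 and 2, with 155653 and 150617 FPKM there and 243963 to 265133 FPKM in replicates 3 to 6. Whether reads of other origin enter the Lars2 value was not tested. Apoe, a lipid carrier made mainly by glia, ranked 24th at 659, 917, 639, 494, 592 and 581 FPKM, and was high in every library. Cytosolic ribosomal protein genes were detected for 72 of 80 symbols but held only 2.12 ± 0.502% of protein-coding FPKM (SD, n = 6). Rpl41 was far the highest of them, at 1307, 1438, 1706, 1749, 1567 and 1822 FPKM, against 258, 324, 226, 218, 206 and 211 FPKM for Rplp0.

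Neuronal genes were present throughout. All 16 genes of a pan-neuronal list were detected, and each was at an FPKM of at least 1 in all 6 libraries. Besides Gap43 and Tubb3, the stathmin Stmn2 was listed at 484, 448, 306, 355, 322 and 324 FPKM. The dendritic microtubule protein Map2 lay between 148 and 423 FPKM with a median of 244, and the synaptic membrane protein Snap25 between 231 and 406 FPKM with a median of 274. Of the neurofilament subunits, Nefl lay between 53.9 and 114 FPKM with a median of 60.2. Nefm exceeded Nefh in 6 of 6 libraries, by 1.14 ± 0.45 on the log2(FPKM + 1) scale, with 68.7, 53.7, 39.1, 32.8, 40.2 and 34.0 FPKM for Nefm and 24.2, 17.1, 15.4, 18.3, 16.3 and 25.4 FPKM for Nefh.

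The defining markers of motoneurons were mostly listed at or near 0, although the cultures were labelled as motoneurons. At the depth of these libraries a listed 0 does not show absence, so the label was not tested. Of 22 motoneuron genes measured, 7 were detected (31.8%, against 36.6% of all protein-coding genes). This count depends on the limit and by itself says nothing for or against the label. It was 12 (54.5%, against 47.3% of all genes) when at least 3 libraries were required, 4 (18.2%, against 24.2%) when all 6 were, and 3 (13.6%, against 23.2%) at an FPKM of at least 5. The 6 genes Chat, Slc5a7, Mnx1, Isl2, Aldh1a2 and Calcb were listed at 0 in all 6 libraries. At the depths above, 1 read would have given Chat between 0.965 and 1.37 FPKM in 5 libraries and 6.38 FPKM in replicate 4, so the listed 0 lies below the value of 1 read. Isl1 was listed at 2.196, 3.18, 0, 0, 3.01 and 0 FPKM. Lhx3 was listed at 3.65 FPKM in replicate 3 and at 0 elsewhere, and Lhx4 at 0.493 FPKM in replicate 1 alone. Prph, a neurofilament-like protein of motor and sensory neurons, was listed at 0, 0, 2.05, 0, 0 and 2.21 FPKM, and Mmp9, a marker of fast motoneurons, at 1.199 FPKM in replicate 2 alone. Slc18a3, the vesicular acetylcholine transporter, was not analysed here. In bulk RNA, few cells of a type and little RNA per cell cannot be told apart.

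The 7 members that were detected encode mainly receptors and guidance cues that other neurons also use. Cntfr, the receptor for ciliary neurotrophic factor, had 43.6, 39.1, 23.8, 9.47, 30.8 and 11.7 FPKM. Gfra1, a co-receptor for the trophic factor GDNF, had 21.4, 20.1, 20.0, 38.7, 11.3 and 22.1 FPKM, and its signalling partner Ret had 6.86, 3.63, 4.80, 3.01, 2.98 and 2.58 FPKM. Gfra1 was thus above Ret in every library. The repellent Slit2 had 13.7, 17.4, 9.67, 35.4, 34.2 and 38.1 FPKM, with replicates 4 to 6 above replicates 1 to 3. Foxp1, a factor of limb-innervating motoneurons, had 5.83, 13.2, 2.01, 0, 16.2 and 14.6 FPKM. Chodl and the neurotrophin receptor Ngfr were close to the threshold, with medians of 2.01 and 1.09 FPKM. Of 16 factors that mark motor columns and pools, 4 were detected (25%, against 36.6% of all protein-coding genes), namely Foxp1, Esrrg, Nos1 and Etv1. None of the 16 reached an FPKM of 1 in all 6 libraries.

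**Figure D2:**
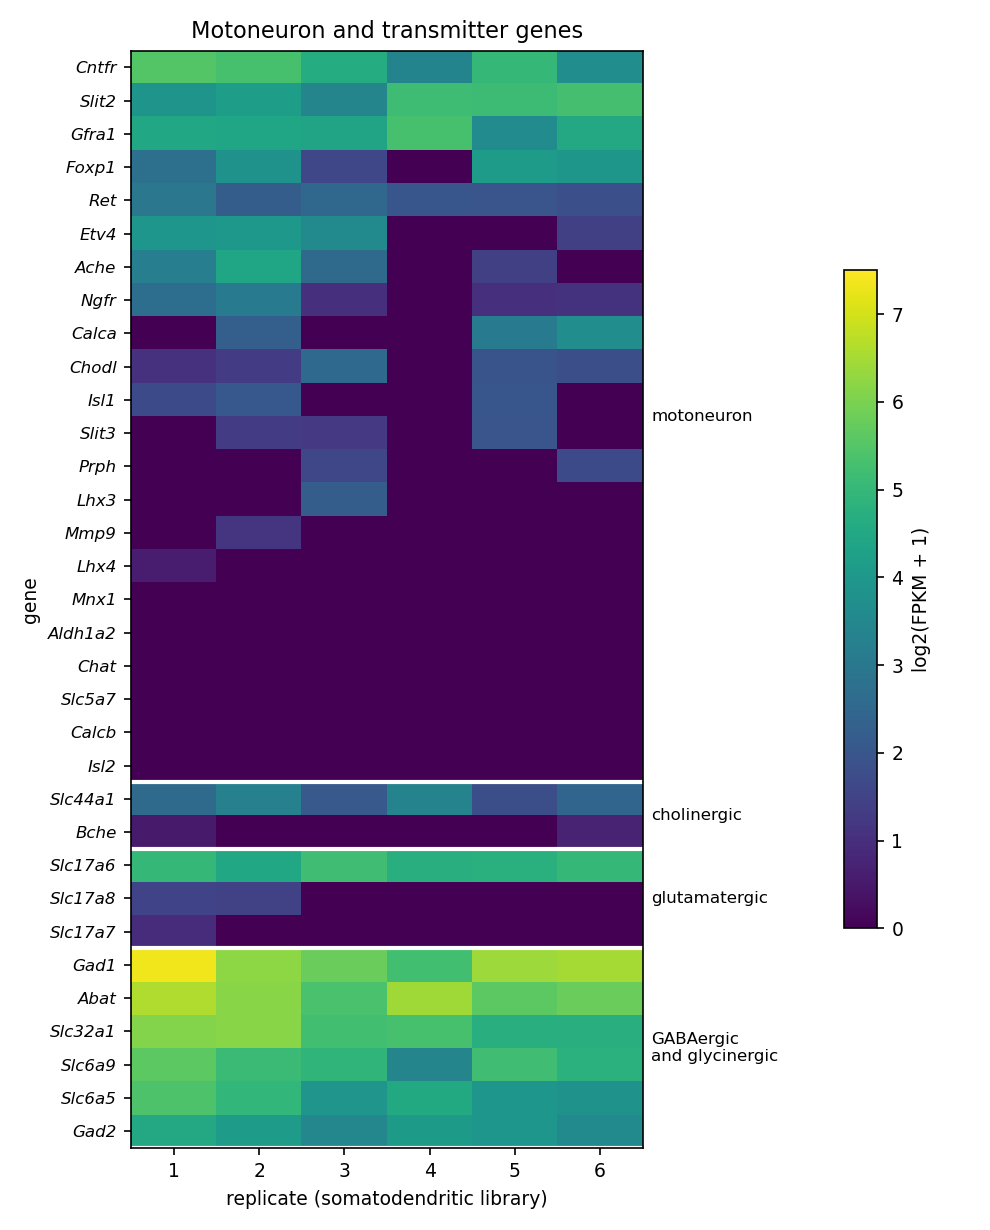
Level of the motoneuron and transmitter genes reported here (rows, log2(FPKM + 1) by colour) in the 6 libraries (columns); Chat, Slc5a7 and Ache belong to both the motoneuron and the cholinergic lists and are drawn once. Chat, Slc5a7, Mnx1, Isl2, Aldh1a2 and Calcb are at 0 in every column, while the GABAergic and glycinergic genes drawn are coloured in every column.

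Genes for making and moving GABA and glycine were detected without exception, 7 of 7, against 36.6% of all protein-coding genes. Each was at an FPKM of at least 1 in all 6 libraries. Gad1, the larger form of the enzyme that makes GABA (chromosome 2, bases 70553072 to 70602014, GRCm38), had 159.9, 73.1, 54.6, 36.5, 83.4 and 89.0 FPKM. Gad2, the smaller form, had 22.2, 16.6, 10.1, 15.9, 14.5 and 10.9 FPKM, below Gad1 in every library. Slc32a1, which loads both GABA and glycine into vesicles (chromosome 2, bases 158610767 to 158615748), had 68.1, 70.7, 36.2, 39.1, 25.8 and 25.2 FPKM, with replicates 1 and 2 above all others, also after rescaling. Slc6a5, the transporter that supplies glycine to glycinergic terminals, had 41.4, 30.4, 13.9, 22.6, 14.3 and 13.3 FPKM. Slc6a9, the glycine transporter of glia and of some glutamatergic neurons, had 47.7, 33.7, 28.7, 9.73, 35.9 and 26.6 FPKM, and the order of these 2 transporters was not the same in every library. Abat, which breaks GABA down, lay between 39.6 and 95.9 FPKM with a median of 61.9.

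Glutamate was represented by Slc17a6, the vesicular transporter of spinal and brainstem excitatory neurons (chromosome 7, bases 51621830 to 51671125), at 30.7, 21.1, 36.0, 25.3, 25.9 and 30.8 FPKM. Its cortical counterpart Slc17a7 was listed at 0.939 FPKM in replicate 1 and at 0 elsewhere, and Slc17a8 at 1.86, 1.71, 0, 0, 0 and 0 FPKM. Of the summed FPKM of the 3 vesicular glutamate transporters, Slc17a6 held 97.4 ± 4.10% (SD, n = 6). Slc17a6 and Slc32a1 did not separate, since Slc17a6 was the higher one in 2 of 6 libraries and the mean difference was -0.53 ± 0.77 on the log2(FPKM + 1) scale (SD, n = 6; exact sign-flip test, adjusted p = 0.26).

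The cholinergic list had 1 detected member of 5 measured, the choline transporter Slc44a1, which many cell types use, at 4.98, 8.68, 3.30, 9.24, 2.47 and 4.46 FPKM. The count was 2 without replicate 4 or without replicate 6, and 0 at an FPKM of at least 5. The acetylcholine-degrading enzyme Ache was listed at 8.16, 20.2, 5.07, 0, 1.66 and 0 FPKM, and Bche stayed under 1 FPKM in every library. Of 14 genes for serotonin, dopamine, noradrenaline and histamine transmission, 11 were listed at 0 in all 6 libraries, among them Th and Tph2, and Maoa was the only one detected (0 to 5.30, median 3.25 FPKM). Of 24 peptide and granin genes 13 were detected (54.2%, against 36.6% of all protein-coding genes). The chaperone of neuropeptide processing Scg5 had 176, 236, 135, 106, 111 and 107 FPKM, neuropeptide Y (Npy) 171, 155, 109, 32.2, 121 and 138 FPKM and the granin Chgb 106, 97.2, 47.5, 46.6, 63.3 and 71.3 FPKM. Somatostatin (Sst) was listed at 27.6, 19.1, 36.2, 0, 24.1 and 26.1 FPKM, and Pnoc, the precursor of nociceptin, lay between 8.46 and 32.0 FPKM with a median of 18.3. Vip, Gal, Crh and Calcb were listed at 0 throughout.

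Levels of 18 pairs of related genes were compared within libraries by an exact two-sided sign-flip test over 64 arrangements, with adjustment over the 18 pairs. The smallest p that 6 libraries allow is 0.03125. In 11 pairs 1 gene was the higher in 6 of 6 libraries, and each of these had p = 0.03125 by the exact test. After adjustment each stood at 0.0511, so 0 of the 18 pairs passed 0.05. With 11 of 18 pairs at the smallest p, no larger difference could have lowered their adjusted value. The count of 0 therefore says nothing of the size of these differences. By an exact Wilcoxon signed-rank test, which has the same smallest p, the count was 0 as well. The 11 include Slc17a6 over Slc17a7 and over Chat, for which no ratio is given because the second gene is listed at 0 in most or all libraries. Gad1 minus Gad2 was 2.29 ± 0.64 and Slc12a2 minus Slc12a5 -2.82 ± 0.50 on the log2(FPKM + 1) scale (mean and SD, n = 6), a scale that understates the ratio of low genes. Slc12a2 brings chloride into neurons and had 3.39, 2.33, 4.99, 8.40, 2.77 and 4.20 FPKM. Slc12a5, the neuronal exporter that lowers chloride as neurons mature, had 47.7, 33.7, 40.1, 43.2, 19.8 and 30.5 FPKM, and the values of the 2 genes did not overlap. Of the 4 chloride transporters listed, 3 were detected, these 2 among them.

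Transcription factors of spinal interneurons were found for several classes. Of 32 such factors 10 were detected (31.2%, against 36.6% of all protein-coding genes). The zinc-finger factor Bcl11a, which acts in dorsal horn neurons, had 40.0, 44.7, 35.8, 100.3, 36.7 and 15.7 FPKM and stood out in the shallow replicate 4. Lmx1b, a factor of dorsal excitatory neurons, had 68.6, 35.1, 19.9, 38.3, 6.78 and 36.3 FPKM. Pax2, which marks inhibitory interneurons, had 40.7, 40.5, 20.4, 23.6, 11.7 and 13.96 FPKM, with replicates 1 and 2 highest, also after rescaling. Lhx1 had 33.5, 19.4, 10.3, 23.8, 22.0 and 13.2 FPKM and Pax8 16.3, 13.6, 7.61, 58.3, 7.10 and 12.2 FPKM. Lbx1, needed by dorsal association neurons, had 13.4, 16.9, 7.30, 7.36, 7.28 and 7.88 FPKM, and Tlx3, a factor of excitatory dorsal neurons, 3.60, 14.9, 4.72, 0, 7.07 and 2.55 FPKM. Pou4f1, shared by dorsal interneurons and sensory ganglia, had 7.78, 34.5, 8.33, 7.04, 6.96 and 20.3 FPKM. Barhl2, also a factor of dorsal interneurons, was detected at a median of 6.67 FPKM. Evx1, Evx2, Phox2a, Ptf1a, Tlx1 and Vsx1 were listed at 0 in all 6 libraries.

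Region was read from Hox genes and from factors of more anterior brain. Of 14 forebrain and midbrain factors 11 were listed at 0 in all 6 libraries, including Emx1, Emx2, Otx1, Otx2 and En2. The only one detected (7.14%, against 36.6% of all protein-coding genes) was Neurod6, at 2.56, 3.53, 6.72, 0, 5.03 and 5.44 FPKM. The count of 1 became 2 without replicate 4 or without replicate 6, and 0 when all 6 libraries were required. Hox genes were detected for 19 of 38 measured (50%, against 36.6% of all protein-coding genes). Hoxb8, on chromosome 11, bases 96281905 to 96285325 (GRCm38), was the highest, at 136, 155, 120.0, 69.0, 95.7 and 91.1 FPKM. Next came its neighbour Hoxb9, at 103, 103, 38.0, 35.4, 49.3 and 48.6 FPKM, then Hoxa9, at 53.0, 45.8, 37.6, 28.6, 42.4 and 26.2 FPKM, and Hoxb7, at 34.2, 56.0, 36.4, 28.3, 19.6 and 27.2 FPKM. Hoxb8 exceeded Hoxb9 in every library, whereas the ranges of Hoxa9 and Hoxb7 overlapped.

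**Figure D3:**
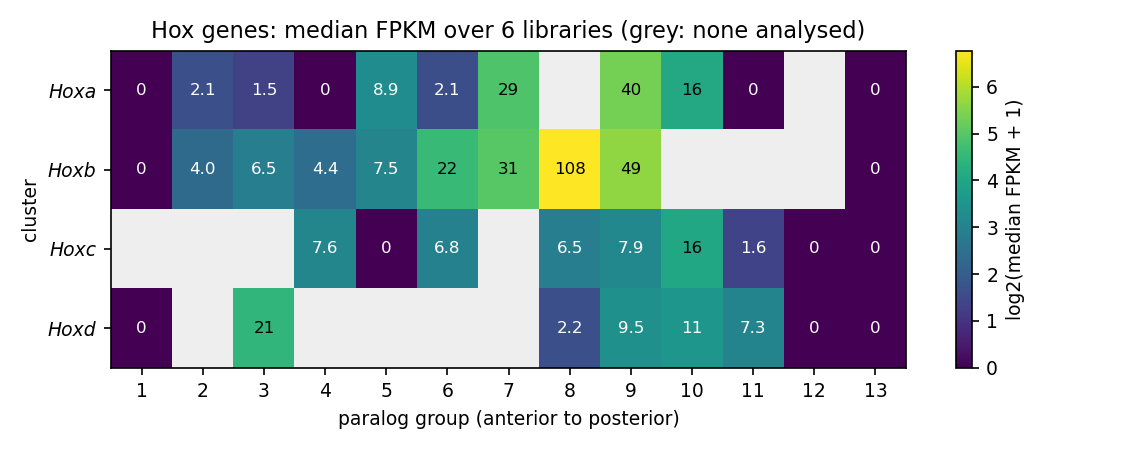
Median FPKM over 6 libraries of each Hox gene, arranged by chromosomal cluster (rows) and paralog group (columns), with colour on the scale of log2(median FPKM + 1) and the median printed in each field. The highest medians lie in groups 7 to 9, led by Hoxb8 with 108 FPKM, and group 13 is at 0.

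Ordered by paralog group, which follows position along the body axis, detected members were found in every group from 3 to 10 and in none of groups 1, 2, 11, 12 and 13. The limits at groups 2 and 11 depend on the shallow replicate 4. Hoxa2, Hoxb2, Hoxc11 and Hoxd11 each reached an FPKM of 1 in 4 libraries and were listed at 0 in replicate 4. Without replicate 4, 24 of 38 Hox genes were detected in place of 19. The summed FPKM of group 8 lay between 69.0 and 165.5 with a median of 126.3, and that of group 9 between 88.4 and 180.7 with a median of 100.9. Group 10, which is expressed in the lumbar cord, had a sum between 19.1 and 63.2 FPKM. Group 11 reached at most 16.1 FPKM, and all 4 members of group 13 were listed at 0 in every library. By cluster, the B cluster held the most, 160.8 to 401.3 FPKM, and the median sums of the A, C and D clusters were 107.7, 47.5 and 59.1 FPKM. Hox genes lie close together and their transcripts can overlap, and the strand setting of the counting is not known here, so the split between direct neighbours is uncertain.

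Of the receptors for glutamate, all 4 AMPA, 4 of 5 kainate, 4 of 7 NMDA and 5 of 8 metabotropic genes were detected. The shares were 100, 80, 57.1 and 62.5%, against 36.6% of all protein-coding genes. Gria2, the subunit that keeps AMPA receptors impermeable to calcium, had 41.5, 42.3, 34.4, 26.7, 29.0 and 25.7 FPKM and held 49.4 ± 6.92% of the summed AMPA subunit FPKM (SD, n = 6). Gria4 had 22.8, 23.8, 14.6, 10.1, 13.03 and 19.4 FPKM and Gria1 18.9, 21.3, 13.5, 0, 9.43 and 8.02 FPKM, both below Gria2 in every library. Of the NMDA receptor genes, the obligatory subunit Grin1 had 38.4, 28.0, 23.4, 20.2, 24.0 and 23.1 FPKM. The subunit of immature receptors Grin2b had 42.2, 44.0, 28.4, 12.4, 28.6 and 11.7 FPKM, against 10.1, 8.73, 4.12, 0, 4.11 and 2.67 FPKM for Grin2a, and was the higher one in 6 of 6 libraries (difference 2.46 ± 0.69 on the log2 scale). Grik5 and Grik2 led the kainate genes with medians of 20.2 and 15.2 FPKM, and Grm5 the metabotropic genes with 28.7 FPKM.

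Among GABA-A receptor subunits 9 of 19 were detected (47.4%, against 36.6% of all protein-coding genes). The leading alpha subunit was Gabra3, at 29.6, 13.5, 26.2, 10.8, 12.1 and 12.4 FPKM, and Gabra2 was listed at 9.23, 3.18, 4.54, 0, 4.53 and 4.90 FPKM, below Gabra3 in every library. Gabra6 and Gabrd, known from cerebellar granule cells, were listed at 0. For the glycine receptor the anchoring beta subunit Glrb had 22.2, 53.9, 27.7, 12.2, 35.4 and 27.8 FPKM. Its embryonic alpha subunit Glra2 had 19.3, 13.3, 14.9, 5.79, 10.3 and 9.93 FPKM, and the adult subunit Glra1 23.0, 15.4, 10.8, 30.5, 18.1 and 15.6 FPKM, with Glra2 the higher one in 1 of 6 libraries. Their difference did not exceed its spread (-0.60 ± 0.89 on the log2 scale; exact sign-flip test, adjusted p = 0.188).

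Nicotinic acetylcholine receptors were detected for 4 of 16 subunits (25%, against 36.6% of all protein-coding genes), Chrna4, Chrnb2, Chrna7 and Chrna3. Chrna4 had 41.0, 18.3, 13.96, 25.8, 13.6 and 12.8 FPKM and Chrnb2, its usual partner in the brain, 12.3, 14.1, 10.8, 16.9, 10.1 and 9.44 FPKM. Chrna7, which forms receptors on its own, had 10.6, 16.4, 8.65, 8.73, 5.18 and 16.8 FPKM. The muscle-type subunits Chrna1, Chrnd, Chrne and Chrng were listed at 0 in all 6 libraries. Of 5 muscarinic receptors Chrm2 and Chrm4 were detected, with medians of 3.20 and 2.68 FPKM.

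**Figure D4:**
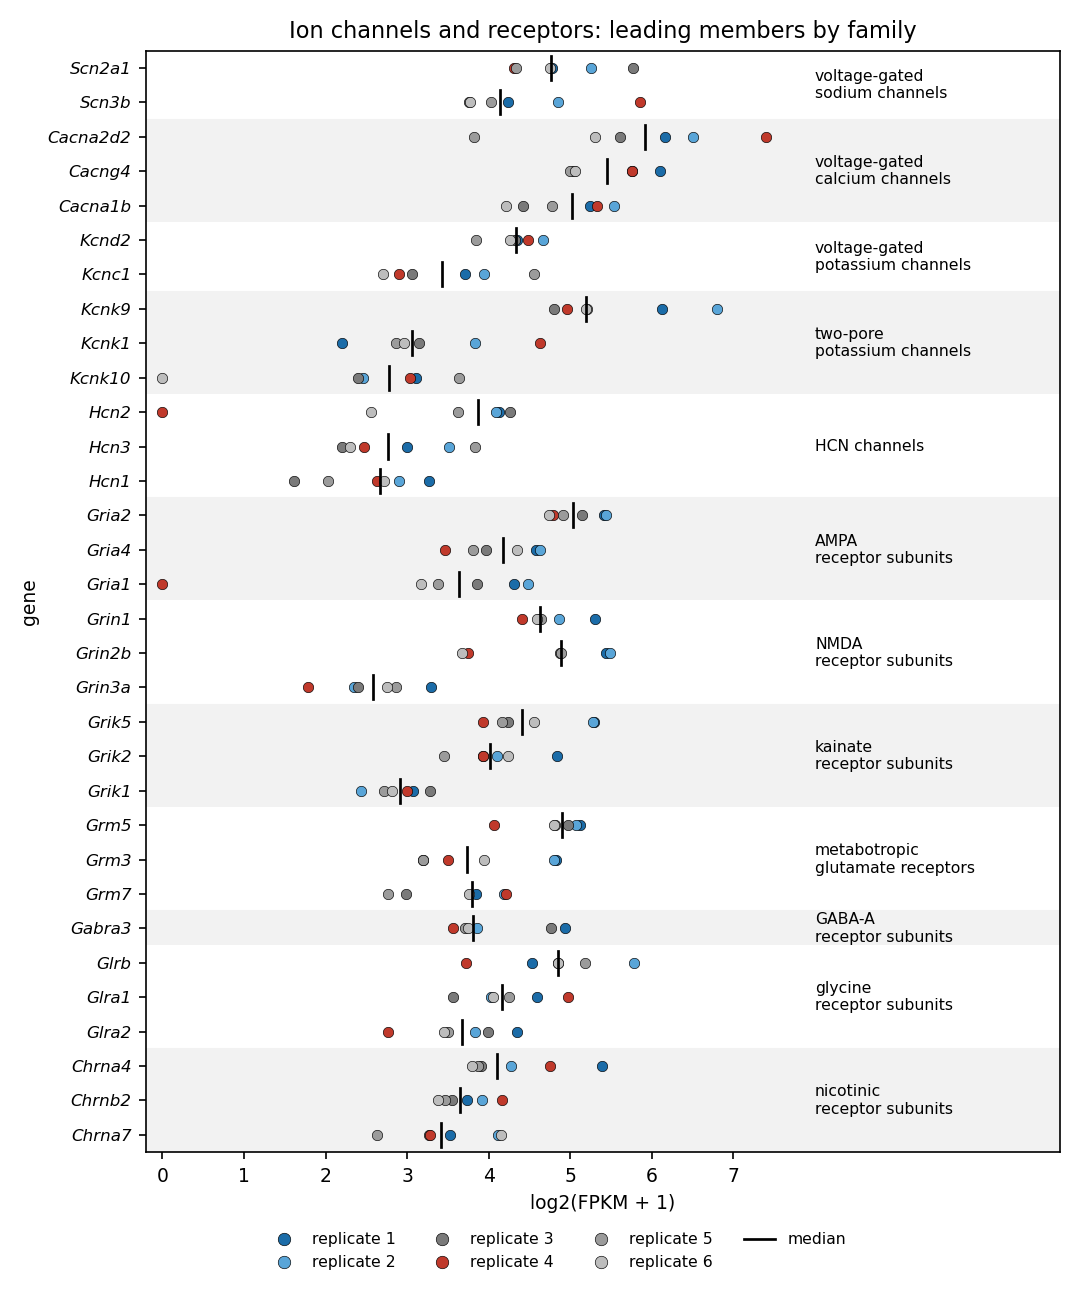
Level, as log2(FPKM + 1), of leading members of 12 channel and receptor families, up to 3 from each, with 1 point per library and a black bar at the median. Cacna2d2 and Kcnk9 reach the highest levels of the genes drawn, and the points at 0 belong mostly to replicate 4, which had 55000 reads.

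Among the voltage-gated sodium, calcium and potassium channels, the calcium list had the highest share of detected genes. It also holds auxiliary genes, so the shares depend on the make-up of the lists. Of 26 calcium channel genes 19 were detected (73.1%, against 36.6% of all protein-coding genes). The auxiliary subunit Cacna2d2 led, at 70.4, 89.5, 48.0, 167, 13.1 and 38.4 FPKM, and spread widely between libraries. Cacng4, an auxiliary protein of AMPA receptors that is named with the calcium channels, had 67.8, 52.9, 32.0, 53.2, 30.9 and 32.4 FPKM. Of the pore-forming subunits, Cacna1b (N-type) had 36.8, 45.5, 20.5, 39.1, 26.4 and 17.5 FPKM and Cacna1a (P/Q-type) 35.3, 49.8, 16.3, 15.9, 11.6 and 32.2 FPKM. These 2 presynaptic channel genes did not separate, with Cacna1b higher in 4 of 6 libraries and a mean difference of 0.29 ± 0.79 on the log2 scale (exact sign-flip test, adjusted p = 0.387). The T-type genes Cacna1h and Cacna1g had medians of 21.6 and 16.3 FPKM, and the L-type genes Cacna1c and Cacna1d 9.84 and 4.49 FPKM. Cacna1s of skeletal muscle and Cacna1f of the retina were listed at 0.

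Sodium channel genes were detected for 7 of 14 (50%, against 36.6% of all protein-coding genes). The pore-forming subunit Scn2a1 of immature axons had 26.3, 37.1, 53.6, 18.9, 19.2 and 26.0 FPKM and exceeded Scn8a, the main channel of mature nodes, in 6 of 6 libraries, with 14.9, 16.5, 8.90, 10.8, 11.7 and 10.8 FPKM for Scn8a. Scn3a and Scn1a were lower and did not separate, at medians of 4.29 and 5.26 FPKM (exact sign-flip test, adjusted p = 0.75). The sensory neuron channels Scn10a and Scn11a and the muscle channel Scn4a were listed at 0 in all libraries. The beta subunit Scn3b had 17.9, 27.7, 12.5, 57.0, 15.3 and 12.6 FPKM, with replicate 4 the highest.

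Of 40 voltage-gated potassium channel genes 16 were detected (40%, against 36.6% of all protein-coding genes). Kcnq3, a subunit of the M current that limits repetitive firing, had 12.4, 7.34, 5.71, 3.20, 4.43 and 6.85 FPKM. The A-type channel Kcnd2 had 19.3, 24.4, 19.0, 21.2, 13.3 and 18.2 FPKM, and the fast delayed rectifier Kcnc1 12.1, 14.4, 7.36, 6.45, 22.5 and 5.54 FPKM. Of 14 two-pore channels, which set the resting potential, 4 were detected (28.6%, below the share of all genes). The acid-sensitive channel Kcnk9 was the highest, at 68.5, 110.2, 26.9, 30.2, 35.8 and 35.6 FPKM. Inward rectifiers were detected for 3 of 15 (20%) and calcium- or sodium-activated channels for 5 of 11 (45.5%). In each case no member was at an FPKM of at least 1 in all 6 libraries, because both lists summed to about 0 in the shallow replicate 4. Without replicate 4 the sums were 11.2 to 41.8 FPKM for inward rectifiers and 33.4 to 58.3 FPKM for calcium- or sodium-activated channels. All 4 HCN genes, which carry the hyperpolarization-activated current, were detected, with a summed FPKM between 9.74 and 42.0. Hcn2 was listed at 16.4, 16.0, 18.1, 0, 11.3 and 4.89 FPKM. Of 22 TRP channels 7 were detected (31.8%), led by Trpm7, at 11.5, 30.4, 9.03, 31.3, 10.8 and 21.8 FPKM.

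Markers of glia were present beside those of neurons. Of 16 astrocyte and radial glia genes 12 were detected (75%, against 36.6% of all protein-coding genes), with a summed FPKM between 386.6 and 792.3. Fabp7, the lipid-binding protein of radial glia, had 136, 179, 108, 113, 107 and 102 FPKM. The glial glycolytic enzyme Aldoc had 138, 184, 111, 27.7, 122 and 92.0 FPKM and the intermediate filament Vim 87.2, 78.5, 75.1, 51.4, 142 and 83.4 FPKM. The glutamate transporter Slc1a3 lay between 24.2 and 153 FPKM with a median of 96.2, Gfap between 0 and 24.4 FPKM with a median of 20.3, and S100b was listed at 0 in all 6 libraries. Of 10 oligodendrocyte lineage genes 6 were detected (60%), with a summed FPKM between 17.5 and 64.7. Olig1 led them, at 6.35, 12.3, 21.7, 25.2, 23.3 and 10.8 FPKM, and the myelin genes Mag and Mog reached an FPKM of 1 in at most 2 libraries. The share of glial RNA in the values of other genes was not tested.

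Markers of other cell types were looked up as well, and their counts stand against the 36.6% detected of all protein-coding genes. Of 10 microglial genes 2 were detected, Cd68 (2.24 to 29.8, median 10.99 FPKM) and Tyrobp (0 to 20.8, median 8.27 FPKM), with Tmem119 at 0, and the summed FPKM of the list lay between 25.2 and 53.4. The microglial count was 4 without replicate 1 or without replicate 4, and 7 when at least 3 libraries were required. Of 9 fibroblast and mural genes 2 were detected, Acta2 (7.75 to 22.3, median 14.7 FPKM) and Tagln (2.40 to 15.9, median 7.54 FPKM), while Col1a2, Col3a1, Dcn and Lum were at 0. Of 8 Schwann cell and neural crest genes Pmp22 and Sox10 were detected, and Erbb3 and Cdh19 were at 0. No endothelial (0 of 6), erythroid (0 of 9) or skeletal muscle gene (0 of 8) was detected. The endothelial count became 1 without replicate 3 or without replicate 4, and each of these 3 lists had 1 member when at least 3 libraries were required. Of 10 sensory ganglion genes 8 were at 0 in all libraries, including Avil and Trpv1, and Pou4f1 alone was detected. Cell cycle genes were detected for 8 of 16, with Pcna, the DNA polymerase clamp, at 32.7, 38.9, 29.8, 24.0, 29.7 and 28.3 FPKM, and Cdk1, the mitotic kinase, at 5.81, 0, 36.3, 56.7, 28.0 and 29.4 FPKM.

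Across the 41 gene lists, 24 had a share of detected members above the 36.6% of all protein-coding genes. At an FPKM of at least 5 the number was 17, against a share of 23.2% of all genes. The median level of a list, as the mean of log2(FPKM + 1), was 6.86 for pan-neuronal, 4.84 for GABAergic and glycinergic, 3.56 for astrocyte and radial glia, 0.86 for motoneuron and 0.21 for cholinergic genes. Over all protein-coding genes it was 0.66. The lists share some symbols, and these counts carry no test.

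Replicates were alike in abundant genes and differed in scarce ones. Over the 11313 genes whose mean FPKM was 1 or more, Pearson's r of log2(FPKM + 1) between 2 libraries had a median of 0.752 over the 15 pairs, and of 0.670 after rescaling. The genes of a library are not independent, so r is given as a description. It was 0.586 to 0.609 in the 5 pairs that include replicate 4 and 0.748 to 0.819 in the other 10. The highest value, 0.819, was that of replicates 1 and 2, and replicates 3, 5 and 6 gave 0.752 to 0.758 among themselves.

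**Figure D5:**
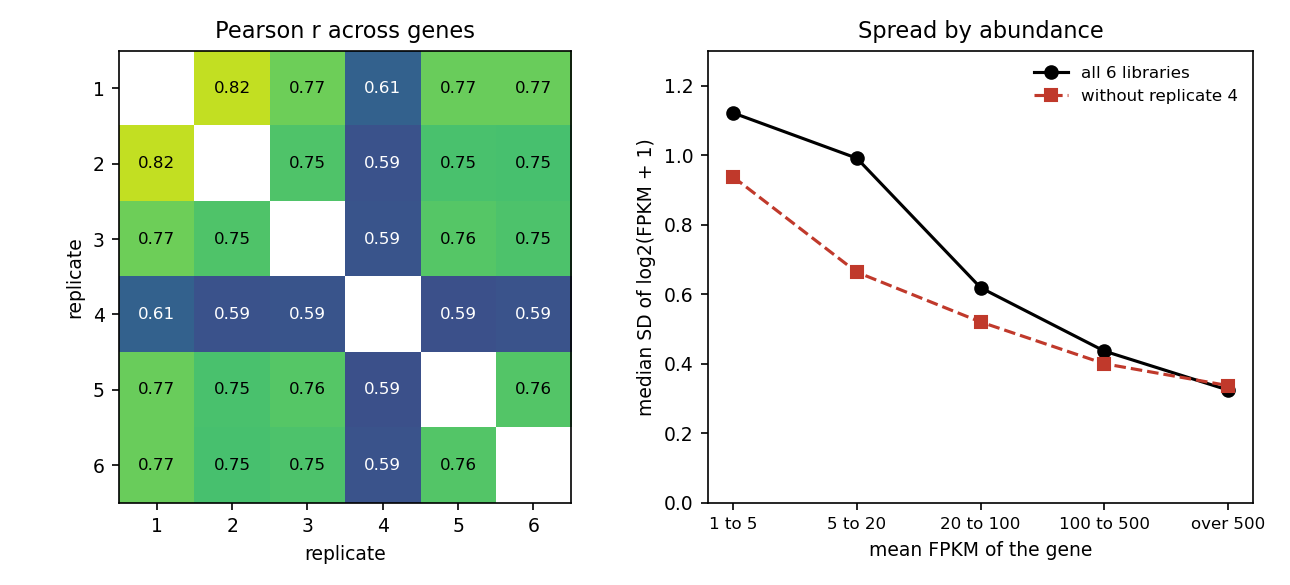
Left, Pearson's r of log2(FPKM + 1) across 11313 genes for each pair of libraries; right, the median standard deviation over libraries of genes grouped by mean FPKM, for all 6 libraries (black) and without replicate 4 (red). Pairs with replicate 4 lie at 0.586 to 0.609, and the spread is smaller in each more abundant class.

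The median standard deviation of log2(FPKM + 1) was 1.12 for genes with a mean of 1 to 5 FPKM, 0.99 from 5 to 20, 0.62 from 20 to 100, 0.44 from 100 to 500 and 0.32 above that. Without replicate 4 it was 0.94, 0.66, 0.52, 0.40 and 0.34, and over all 6 libraries after rescaling 1.88, 1.09, 0.59, 0.34 and 0.22. The rescaled FPKM are higher against the same added 1, so for scarce genes the spread before and after rescaling is not directly comparable. Of the genes between 1 and 5 FPKM, 85.0% were listed at 0 in at least 1 library, against 9.13% between 20 and 100 FPKM. Of the 100 highest genes of each library, 62 were shared by all 6, and 68 by the 5 libraries other than replicate 4.

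By deposited FPKM, the 5 genes of lowest spread among the 856 with a mean of at least 50 FPKM, mitochondrial genes aside, were 3 tubulins, Ldhb and Atxn2. The choice depends on the scaling. After the protein-coding FPKM of each library were rescaled to a common sum, a step added after the values had been seen, none of them was among the 5 lowest. Their standard deviations on the log2 scale were then 0.20 to 0.27, against 0.04 to 0.10 as deposited, and the lowest were those of Dpysl2 (0.04), Ndufb10 (0.07), Eef1a1 (0.07), Pkm (0.08) and Gnas (0.09). Ldhb, a subunit of lactate dehydrogenase, had 107, 102, 105, 106, 108 and 101 FPKM. Tubb2b had 269.9, 302, 281, 304, 299 and 317 FPKM, and Tuba1c 178, 169.7, 186, 165, 175 and 187 FPKM. In deposited FPKM these genes did not show the offset of replicates 1 and 2 that Tubb5 did, at 1361, 1342, 610.5, 785, 665 and 698 FPKM, and Tubb5 kept it after rescaling. Atxn2, an RNA-binding protein, lay between 66.5 and 81.3 FPKM with a median of 75.6. Of 18 tubulin genes 13 were detected, each at an FPKM of at least 1 in all 6 libraries. At the other end of the spread stood Snurf, B4galt5, Gm11273, Uqcr10 and Gm4540, of which 4 remained among the 5 highest after rescaling. Snurf had 465, 361, 306, 0, 191 and 106 FPKM. It overlaps Snrpn, with which it shares a transcript and which had 241, 263, 123, 132, 109 and 152 FPKM, so the split of reads between the 2 genes is uncertain. B4galt5 had 146, 119.9, 68.3, 0, 104 and 82.7 FPKM and Uqcr10, a subunit of the respiratory chain, 19.1, 17.5, 108, 0, 99.8 and 109 FPKM. Of these 5 genes, 4 were listed at 0 in replicate 4, and Gm11273 was near 0 in replicate 3.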

How the data were processed

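Total RNA of 6 somatodendritic libraries was used, grouped and numbered by the sample titles. FPKM per gene were deposited by the authors as gene tables of the Cufflinks format, per the file headers, and used unchanged. The submitters' processing notes name Cufflinks 2.2.1, FastQC 0.10.1 and the build GRCm38. No source used here gives the annotation release, the strand setting or the treatment of reads with several matches. FPKM is relative to all RNA of a library, so abundant non-coding RNA lowers every protein-coding value.

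Coordinates are those of the tables, with 1-based starts. Transcript lengths came from GENCODE M21, which held 21916 of the 22736 gene IDs (96.4%). The 1-read step was fitted on 2976 protein-coding genes with 1 transcript of over 1000 bases. Of values of up to 5 reads, 66.7 to 67.9% were whole to within 0.02 reads. Because the step depends on gene length, no count test was run. Where a symbol stands on several lines (103 lines repeat one), its first line stood for it in lists and pairs, which concerned Cacng8 and Kcnb2. Drgx and Slc18a3 were not analysed here.

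Levels are means of log2(FPKM + 1). Gene pairs were tested on this scale by the exact two-sided sign-flip test with Benjamini-Hochberg adjustment at 0.05 (Python 3.11.15, numpy 2.4.6, pandas 2.3.3, scipy 1.17.1, figures by matplotlib 3.10.9). The step finder and the pair test were tested on simulated data. The genes named are the 30 of highest mean level, all motoneuron, transmitter and pair genes, the 3 highest detected of each other list, all detected identity factors and Hox genes, and the 5 genes of highest and of lowest spread with a mean of at least 50 FPKM. Some genes under this rule are not reported here, though they stay in the counts, list sums and the test of all 18 pairs. Further members of the lists were named after their values were seen. The genes, lists and pairs were chosen with earlier results of these data known. Alternatives changed the detection limit, the scaling, the pseudocount and the filter, and left out each library in turn.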

Additional observations from a re-analysis of the deposited data

Results flagged for a closer look

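In each set of 6 libraries, a value was singled out when its gap to the nearest other library took up most of the whole range (Dixon's test at its 95% critical value). Chance alone singles out about 1 in 20 sets of continuous values. A gene at 0 in all but 1 library is always singled out, so that rate does not hold for Lhx3, Mmp9, Lhx4 and Slc17a7. Beside these 4, and 6 genes at 0 in all libraries, 192 values were examined. Of these 12 were singled out, 9 of them in replicate 4, which had the fewest reads.

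Replicate 4 stood below the other libraries in 3 summary values. It had 6547 genes at an FPKM of at least 1, against 10327 to 10934 in the others, and 55000 reads, against 255000 to 363000. Its mean correlation with the other libraries was 0.593, against 0.723 to 0.748.

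The same library stood above the others in 6 genes. Bcl11a, a factor of dorsal horn neurons, had 100.3 FPKM in replicate 4, against 15.7 to 44.7 FPKM elsewhere. Pax8 had 58.3 FPKM, against 7.10 to 16.3, and Esrrg, a factor of gamma motoneurons, 43.9 FPKM, against 0.809 to 6.47. The sodium channel subunit Scn3b had 57.0 FPKM, against 12.5 to 27.7, and the ribosomal protein gene Rps15 474 FPKM, against 165 to 232. The skeletal muscle actin gene Acta1 was listed at 29.7 FPKM, against 0 to 2.66.

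The other 7 concern genes of low level in libraries other than replicate 4. Lhx3 was listed at 3.65 FPKM in replicate 3, Mmp9 at 1.199 FPKM in replicate 2, and Lhx4 at 0.493 and Slc17a7 at 0.939 FPKM in replicate 1, each with 0 in all 5 other libraries. Kcnj6 had 9.63 FPKM in replicate 2, against 0 to 3.61 elsewhere, and Chrm2 9.46 FPKM in replicate 1, against 1.91 to 4.13. Pmp22 was listed at 0 in replicate 6, against 8.02 to 10.38 FPKM in the others.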

How the results depend on the processing

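The number of detected genes was 5501 when all 6 libraries were required and 5267 at an FPKM of at least 5. It was between 8534 and 9475 with 1 library left out and 1 fewer required, a looser limit that cannot lower the count. The share of the 100 highest genes was 21.4% without mitochondrially encoded genes and between 26.2 and 26.7% with 1 library left out. The median correlation between replicates was 0.619 with a pseudocount of 0.1 and 0.886 with no filter, which adds genes at 0 in both libraries of a pair, and between 0.743 and 0.755 with 1 library left out. Between 23 and 25 lists lay above the background with 1 library left out. The number of gene pairs past the test was 0 under every alternative run, and with 1 library left out the smallest possible p is 0.0625. Among the pairs reported, the mean log2 difference changed sign for Scn3a minus Scn1a without replicate 1 (0.016) and without replicate 6 (0.073), the range being -0.24 to 0.073. No paired analysis was possible because all libraries belong to 1 group.

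Of the 41 lists, the count of detected members moved by over 1.5 times in 20 at an FPKM of at least 5, in 16 when all 6 libraries were required and in 9 when at least 3 were. Leaving out replicate 4 moved it in 4 lists, replicate 6 in 2, and replicates 1 and 3 in 1 each. None moved under either scaling.

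Depth limits what the lists can show. A gene of 1 to 5 FPKM rests on a few reads, replicate 4 had 55000 reads, and a listed 0 does not show absence.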

Other observations

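Families of transcription factors outside the lists were looked up after their values had been seen. Zic1, a zinc-finger factor of dorsal neural tube, had 96.3, 77.5, 60.9, 54.0, 81.5 and 54.8 FPKM in replicates 1 to 6, and 3 of 5 Zic genes were detected. All 4 Ebf genes, factors of differentiating neurons, were detected. Ebf3 had 68.3, 67.8, 45.2, 37.3, 41.4 and 42.4 FPKM, and Ebf1 had 162.2, 75.9, 42.3, 29.5, 40.9 and 30.5 FPKM, with replicate 1 the highest for both. The Hox cofactor Meis2 had 84.0, 101.4, 94.0, 23.3, 96.1 and 69.9 FPKM, with replicate 4 the lowest. All 4 Nfi genes were detected, led by Nfia, with a median of 31.6 FPKM, and Nfix, with a median of 36.9 FPKM. Each of Zic1, Ebf1, Ebf3, Meis2, Nfia and Nfix was at an FPKM of at least 1 in all 6 libraries.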
